A study of Mus musculus with 3 samples.

Results

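The circadian clock genes Per1, Per2, Per3, Cry1, Cry2, Dbp, Nr1d1, Nr1d2, Clock and Bhlhe40 were examined in cultured mouse spleen cells exposed to urine. The 10 genes were chosen by name from the 36609 genes on the array, with earlier results of these data known. Of the array's 56599 probes, 23 read them. The cells came from male MRL/MpJ spleen at 6 months of age, and so carry an intact Fas gene in every group. Contact lasted 3 h, in 1 group with phosphate-buffered saline (PBS) as control. A second group received MRL/MpJ urine. A further group received urine from MRL/MpJ-Faslpr/lpr animals, which lack functional Fas and develop lupus-like disease; it is called lpr urine. Each urine was a filtered pool from 6 male donors aged 6 months, and the spleen cells had been treated with ammonium chloride, which lyses red blood cells. The protocol speaks of the spleen of a single mouse, and whether all wells shared it is not given in the sources used here. The time of day at which spleen and urine were taken, the light schedule and the share of urine in the medium are likewise not given there. There was 1 array per condition, so no difference below has a replicate check, a standard error or a p-value, and treatment, culture well and array cannot be told apart.

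Read from a lead probe each, Per1, Bhlhe40 and Cry2 were the clock genes that differed most from PBS, and they were lower with both urines. Per1 was 5.17-fold lower with MRL/MpJ urine and 5.14-fold lower with lpr urine, Bhlhe40 was 4.84-fold and 4.16-fold lower, and Cry2 was 2.70-fold and 3.02-fold lower. On the lead probe, the brightest of a gene's probes well above background, none of the 10 genes was 2-fold higher with a urine. Of all genes, 16.9% were 2-fold higher and 11.1% lower with MRL/MpJ urine, and 18.5% and 12.0% with lpr urine. Per2, Per3 and Dbp stayed within 2-fold of PBS. Between the urines of the autoimmune and the parent strain, none of the 9 lead probes measured on both arrays differed 2-fold. Few genes did so at all, with 0.340% of 20014 genes 2-fold higher and 0.0600% lower with lpr urine.

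The mammalian clock is a feedback loop of transcription. CLOCK pairs with BMAL1 and switches on the Per, Cry, Nr1d1, Nr1d2, Dbp and Bhlhe40 genes through E-box motifs, and PER and CRY proteins return to the nucleus and block that pair. The nuclear receptors REV-ERB alpha and beta, from Nr1d1 and Nr1d2, repress Bmal1, and DBP activates Per genes through D-box motifs. Leukocytes of the spleen carry this clock, REV-ERB alpha restrains inflammatory genes in macrophages, and several clock genes, Per1 and Bhlhe40 among them, also respond within hours to signals from outside the cell.

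The arrays differed in brightness, which sets the zero of every comparison with PBS. The processed signal had its 75th percentile at 157.5 intensity units on the PBS array, at 86.6 for MRL/MpJ urine and at 75.7 for lpr urine. Signals were scaled to that percentile, and a log2 difference is the difference of 2 scaled log2 signals. The E1A spike-ins, which are control RNAs given to each labelling at known amounts, differed from PBS by 0.04 and -0.07 in log2 signal before scaling, so scaling to them instead shifts each log2 difference from PBS by -0.91 for MRL/MpJ urine and -0.99 for lpr urine. The order of genes is the same under either scale, and the zero is not. In spots repeated on an array, noise would give a log2 difference an SD of 0.05 at log2 signals of 8 and over, 0.12 at 5 to 8 and 0.25 below 5, which leaves out noise between arrays. All 7 B cell and 8 T cell markers were well above background on each array, and 4 of 5 markers of urinary tract epithelium were on none. The B cell markers summed to 34711, 37631 and 30955 intensity units on the PBS, MRL/MpJ urine and lpr urine arrays, and the T cell markers to 32570, 19033 and 17728. On the percentile scale 4 and 3 of 7 B cell markers, 4 and 4 of 8 monocyte and macrophage markers and 3 and 3 of 4 plasma cell markers were 2-fold above PBS, where 16.9% and 18.5% of all genes were. The NK cell, neutrophil, dendritic cell and erythroid lists had 1 such marker each, and the T cell list 0 of 8. On that scale 1 dendritic cell marker was 2-fold lower with each urine. Under spike-in scaling 1 B cell marker was 2-fold higher with each urine and 0 of the other lists. Lower by 2-fold with each urine were then 1 B cell, 2 T cell, 2 NK cell and 2 dendritic cell markers. So were 1 plasma cell and 1 urinary tract marker, where 40.9% and 44.0% of all genes were 2-fold lower. The B cell median under spike-in scaling was 0.16 for MRL/MpJ urine and 0.00 for lpr urine. In bulk RNA, fewer cells of a type and less RNA per cell cannot be told apart, and the part of cell mixture in the clock gene differences was not tested.

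The probes are shown first, because some genes rest on 1 probe and others on probes for different transcripts. Each is 60 bases long, and the first 30 bases from the array's annotation are given for the probes of the genes that differed most and for the only probe of Nr1d1.
Per1, probe for NM_011065, chr11:68923364-68923423 (mm9, plus strand): gtgttctcagctctaccctctaccaatgac
Per1, probe for ENSMUST00000101004.8, chr11:68919895-68919954 (mm9, plus strand): ttagtgtttcagggcagtagaggtggccgg
Bhlhe40, probe for NM_011498, chr6:108616309-108616368 (mm9, plus strand): agcagcggatggagcgtccttgctaaaaag
Cry2, probe for NM_009963, chr2:92243807-92243866 (mm9, minus strand): tctcccacagtttgtttgtgaatatttacc
Nr1d1, probe for NM_145434, chr11:98630526-98631028 (mm9, minus strand): ggcacctttgaggtgctgatggtgcgcttt
The Nr1d1 probe spans 503 bases of genome for 60 bases of sequence, and a Clock probe (chr5:76658557-76659217) spans 661, so each is split over the genome. No annotation of that build was used here, so exon, intron and UTR are not assigned to the other probes.

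Promoters are shown because the clock works through short motifs close to the start of these genes. RefSeq windows of 250 bases before to 50 after a start (GRCm38.p6) were matched for 8 members, with 11 windows, and not for Per2 and Bhlhe40. The motifs searched on both strands were the E-box CACGTG, its variant CACGTT, the D-box TTATGTAA, the cAMP response element TGACGTCA and the ROR and REV-ERB site AGGTCA. No 2 of the matches overlapped. Stretches around the E-box, variant E-box and D-box matches follow, with each motif or its reverse complement in capitals; those of Nr1d2 and Clock, which hold the ROR and REV-ERB site alone, are not printed.
Per1, chr11:69098763-69098837 (plus strand), E-box and ROR site: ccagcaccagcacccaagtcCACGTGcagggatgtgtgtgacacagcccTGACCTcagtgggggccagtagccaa
Cry1, chr10:85185089-85185153 (minus strand), variant E-box and E-box: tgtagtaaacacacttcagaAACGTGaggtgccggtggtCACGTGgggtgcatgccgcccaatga
Cry2, chr2:92434210-92434255 (minus strand), variant E-box: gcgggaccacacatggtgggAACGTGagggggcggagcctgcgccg
Nr1d1, chr11:98775380-98775425 (minus strand), variant E-box: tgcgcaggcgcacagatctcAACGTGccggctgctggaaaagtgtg
Per3, chr4:151044796-151044890 (minus strand), D-box, 2 matches: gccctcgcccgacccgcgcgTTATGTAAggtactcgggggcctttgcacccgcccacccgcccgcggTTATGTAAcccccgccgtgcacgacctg
The E-box stood in 2 of the 11 windows (Per1 and Cry1) and in 7.15% of all 32851 windows in the table. The variant E-box stood in 3 (Cry1, Cry2, Nr1d1), against 4.68% of all windows, and the D-box in 1, against 0.938%. The ROR and REV-ERB site stood in 3 (Per1, Nr1d2, Clock), against 16.3%, and the cAMP response element in 0, against 1.79%. A match describes letters only and does not show that a factor binds.

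Per1 stood apart from the other period genes. These genes encode the repressors that, with the cryptochromes, close the loop. The main Per1 probe read 3487 intensity units on the PBS array, 371 for MRL/MpJ urine and 326 for lpr urine. Both urine arrays thus lay far below PBS and close to each other. The log2 difference from PBS was -2.37 for MRL/MpJ urine and -2.36 for lpr urine, and -3.28 and -3.35 under spike-in scaling. The other Per1 probe, for a separate transcript, read 4.32, 4.82 and 7.62 units and was well above background on the lpr urine array alone. Against PBS, lpr urine put it at least 3.55-fold higher, on the percentile scale and at a low signal (the lowest called well above background on that array was 4.43 units), so the 2 Per1 probes did not go the same way. Its log2 difference was 0.88 under spike-in scaling and 0.77 with normexp, both under 2-fold.

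Per2 and Per3 did not follow Per1. The main Per2 probe (chr1:93312595-93312654, mm9) read 193.9 units on the PBS array, 137.7 for MRL/MpJ urine and 116.3 for lpr urine. Its log2 difference from PBS was 0.37 and 0.32, and -0.54 and -0.67 under spike-in scaling, so its direction depends on the scale. The second Per2 probe read 6.06 units with PBS and was not well above background with either urine (4.66 and 3.75 units). The main Per3 probe (chr4:150385608-150385667) read 39.1, 31.9 and 27.5 units, with log2 differences of 0.57 and 0.55 that were -0.34 and -0.44 under spike-in scaling. A second Per3 probe had 0.38 and 0.68 (-0.53 and -0.31 under spike-in scaling), and the last was well above background on no array. The gap between paralogues does not depend on a scaling constant per array. The log2 difference of Per1 minus that of Per2 was -2.74 for MRL/MpJ urine and -2.68 for lpr urine, so the Per1 to Per2 signal ratio was 6.67-fold and 6.42-fold lower than with PBS. Per1 minus Per3 was -2.93 and -2.91.

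**Figure D1:**
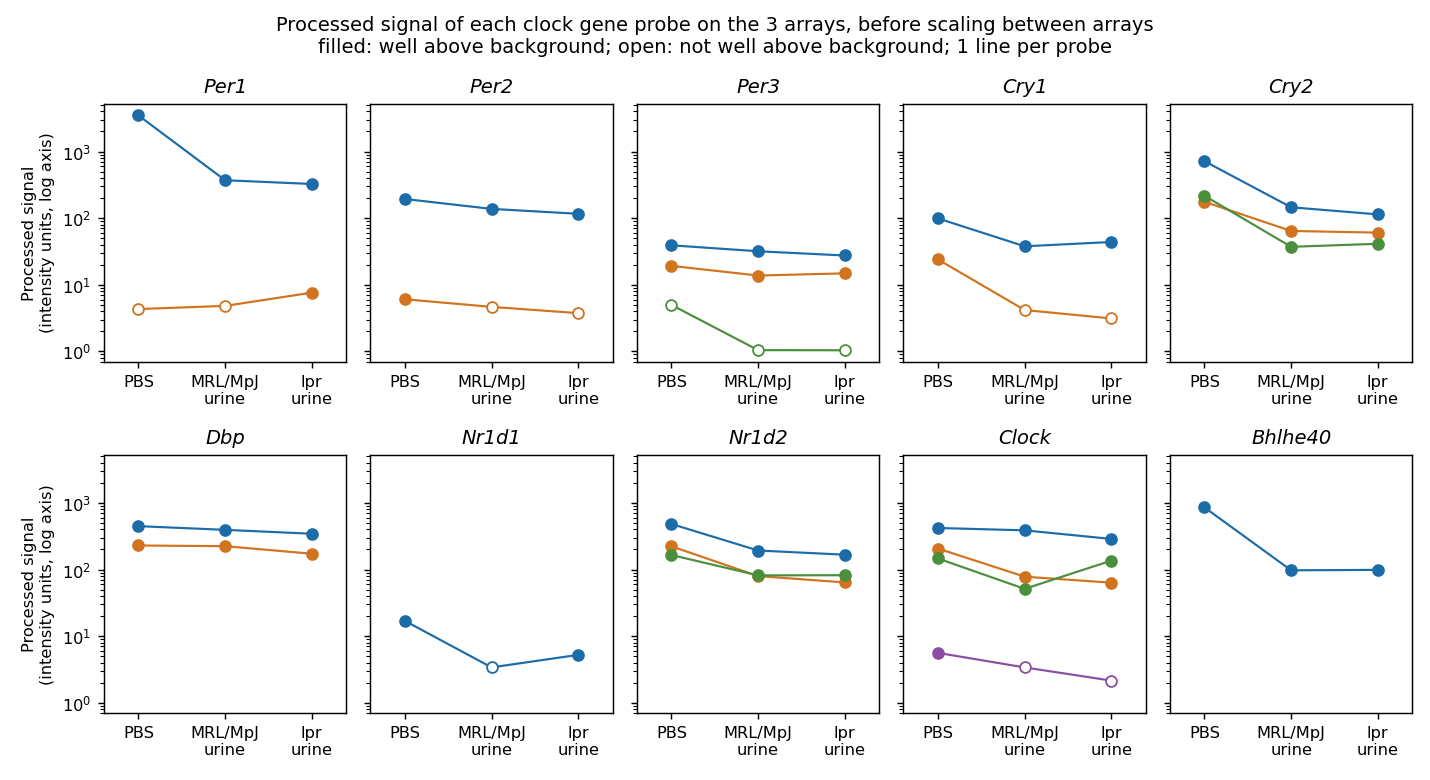
Processed signal (intensity units, log axis) of each of the 23 clock gene probes on the PBS, MRL/MpJ urine and lpr urine arrays, before any scaling between arrays. Each line is 1 probe and each point 1 array, filled where the probe was well above background. The main Per1 probe drops from 3487 to 371 and 326 units and Bhlhe40 from 856 to 97.4 and 98.9, while the lines of the main Per2, Per3 and Dbp probes slope less.

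Both cryptochrome genes encode light-independent repressors that hold CLOCK and BMAL1 inactive, and on the lead probes Cry2 differed more than Cry1. The main Cry2 probe read 716 units on the PBS array, 145.7 for MRL/MpJ urine and 114.0 for lpr urine, so both urine arrays were again well below PBS. Its log2 difference was -1.44 and -1.60. The Cry2 probe for ENSMUST00000125488.1 (chr2:92265472-92265531) read 216.8, 37.1 and 41.2 units and differed by -1.68 and -1.34. With normexp background correction it differed by -1.02 and -0.83, which ends its 2-fold call for lpr urine. The probe for ENSMUST00000111278.1 (chr2:92251417-92251476) read 176.0, 64.3 and 60.7 units, and its differences of -0.59 and -0.48 stayed within 2-fold. All 3 Cry2 probes were thus lower, by sizes that spanned 1.09 in log2 for MRL/MpJ urine and 1.12 for lpr urine. Over all genes with several measured probes the median span was 0.56 and 0.59.

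The main Cry1 probe (chr10:84647094-84647153) read 99.2 units on the PBS array, 37.8 for MRL/MpJ urine and 43.9 for lpr urine. Its log2 difference was -0.53 and -0.12, within 2-fold, and it passed 2-fold lower under spike-in scaling at -1.44 and -1.11. With normexp background correction, which compresses dim signals, the value for lpr urine was 0.04. The second Cry1 probe (chr10:84594731-84594790) read 24.0 units with PBS and was not well above background with the urines (4.18 and 3.13 units). It was at least 2.96-fold lower with MRL/MpJ urine and at least 2.61-fold lower with lpr urine. With normexp its log2 difference was 0.13 and 0.21. The Per3 probe that was well above background on no array had 0.48 and 0.61 with normexp. At such low signals the sign with normexp therefore does not give the direction of this Cry1 probe. On the lead probes, the log2 difference of Cry2 minus that of Cry1 was -0.91 for MRL/MpJ urine and -1.48 for lpr urine. Other probes do not keep this order. The bound of 2.96-fold for the second Cry1 probe stands against a log2 difference of -0.59 for the Cry2 probe for ENSMUST00000111278.1, both with MRL/MpJ urine.

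The REV-ERB genes were lower in part. Nr1d1 read 17.0 units on the PBS array, 3.40 for MRL/MpJ urine, where it was not well above background, and 5.24 for lpr urine. It was at least 2.09-fold lower with MRL/MpJ urine and 1.56-fold lower with lpr urine (log2 difference -0.64). With normexp the log2 difference was 0.27 for MRL/MpJ urine and 0.43 for lpr urine. The Per3 probe that was well above background on no array had 0.48 and 0.61 with normexp. At such low signals the sign with normexp therefore does not give the direction of Nr1d1. Nr1d2, read by 3 probes, was brighter. Its main probe (chr14:19036859-19036918) read 482 units on the PBS array, 193.1 for MRL/MpJ urine and 167.0 for lpr urine, a log2 difference of -0.46 and -0.47. The other Nr1d2 probes gave -0.62 and -0.15 with MRL/MpJ urine and -0.74 and 0.05 with lpr urine. All 3 were therefore within 2-fold of PBS, and under spike-in scaling the main probe passed 2-fold lower at -1.36 and -1.46.

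Dbp is an output gene whose protein activates through D-boxes, and its probes lay close together. Its main probe (chr7:52965265-52965324) read 448 units on the PBS array, 394 for MRL/MpJ urine and 345 for lpr urine. The second probe read 229.8, 224.2 and 172.8 units. The log2 differences were 0.68 and 0.83 with MRL/MpJ urine and 0.68 and 0.65 with lpr urine. Under spike-in scaling they were -0.23 and -0.08, and -0.31 and -0.34, so the direction depends on the scale.

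Clock encodes the activator that pairs with BMAL1, and its probes differed in size and, on the percentile scale, in direction. The main probe (chr5:76639992-76640051) read 421 units on the PBS array, 388 for MRL/MpJ urine and 288 for lpr urine, with log2 differences of 0.75 and 0.51 that were -0.16 and -0.48 under spike-in scaling. The probe for ENSMUST00000202857.3 (chr5:76664578-76664637) read 206.6, 78.2 and 63.6 units and differed by -0.54 and -0.64, and by -1.45 and -1.63 under spike-in scaling. The probe at chr5:76641377-76641436 read 146.7 units on the PBS array, 51.3 for MRL/MpJ urine and 136.1 for lpr urine. Its log2 difference from PBS was -0.65 for MRL/MpJ urine and 0.95 for lpr urine, and -1.56 and -0.04 under spike-in scaling. The span between the 3 Clock probes was 1.40 in log2 with MRL/MpJ urine, more than in 79.9% of the 6720 genes with several measured probes. The fourth Clock probe, the one split over the genome, read 5.61 units with PBS and was not well above background with the urines. On the percentile scale the Clock probes thus gave no single direction. Under spike-in scaling all 3 measured ones had values below 0 with both urines. Of these, the -0.04 of the probe at chr5:76641377-76641436 with lpr urine was within the spot SD of 0.12, so no direction is read from it. That SD leaves out noise between arrays, so a value beyond it is not thereby an established difference.

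Bhlhe40 encodes DEC1, a repressor that competes for E-boxes and that T cells use to control cytokine output. Its 1 probe read 856 units on the PBS array, 97.4 for MRL/MpJ urine and 98.9 for lpr urine. Like Per1, it was far below PBS on both urine arrays, which lay close together. The log2 difference was -2.27 and -2.06, and -3.18 and -3.05 under spike-in scaling.

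**Figure D2:**
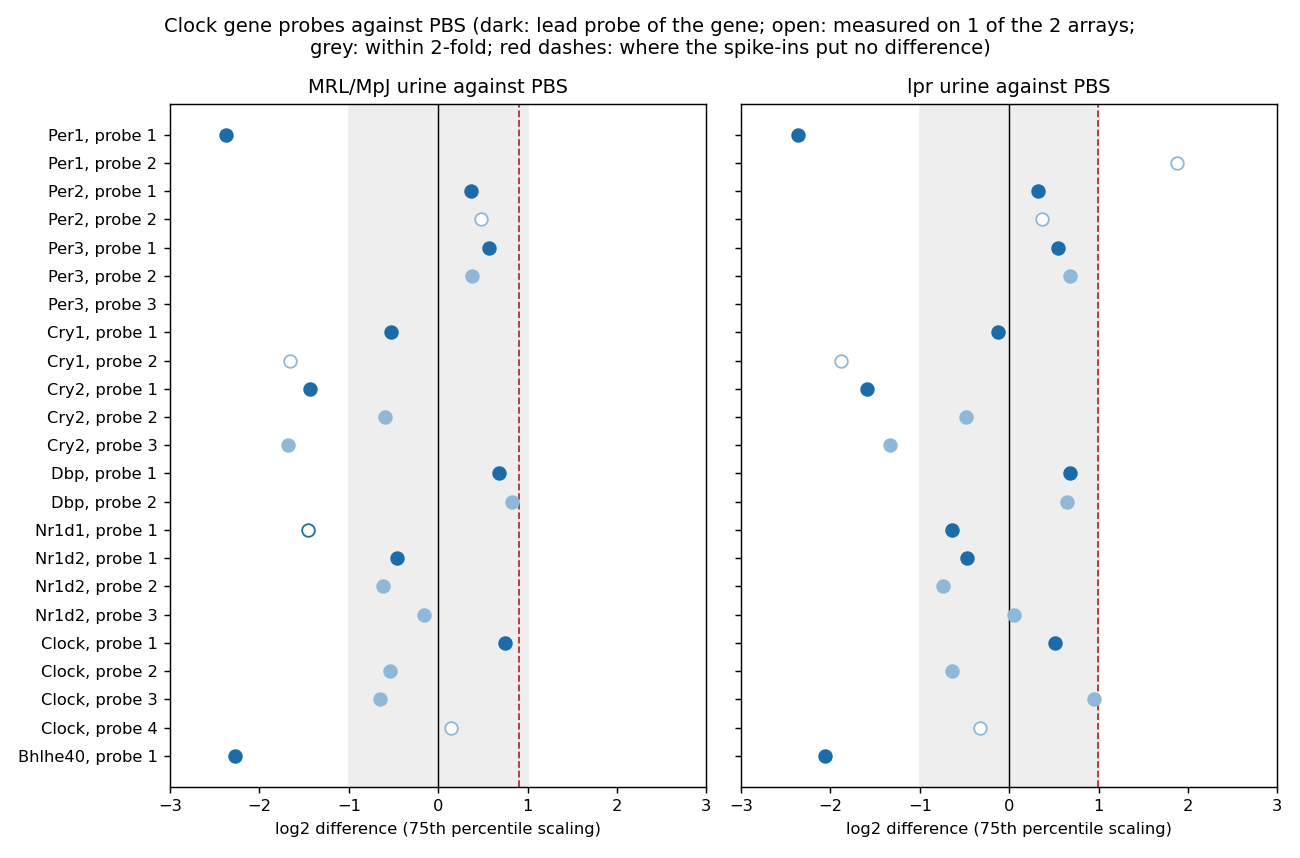
Log2 difference from PBS of each clock gene probe with MRL/MpJ urine (left) and lpr urine (right), after scaling to the 75th percentile; probes of a gene are numbered from the brightest. Dark points are the lead probe of a gene, open points were measured on 1 of the 2 arrays, grey marks values within 2-fold, and the red dashes mark the position at which the spike-ins put no difference (0.91 and 0.99). The lead probes of Per1, Bhlhe40 and Cry2 lie left of the grey band in both panels, and every filled point lies left of the red dashes. A further Cry2 probe lies inside the band (-0.59 and -0.48). Among open points, the second Cry1 probe (both panels) and Nr1d1 (left panel) lie left of the band, and the second Per1 probe lies right of it (right panel).

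For counts over genes, each gene was read from its lead probe, which was well above background on most arrays and, among ties, the brightest. The comparison of MRL/MpJ urine with PBS asked how spleen cells respond to urine of their own strain. Measured on both arrays were 9 clock genes; 3 of them, Per1, Cry2 and Bhlhe40, were 2-fold or more lower and 0 higher. Nr1d1 was the member left out, since it was measured with PBS alone. Over all 19639 genes measured on both, 16.9% were 2-fold higher and 11.1% lower. The median log2 difference was -0.46 for the clock genes and 0.13 for all genes. Setting lpr urine against PBS put that question for the autoimmune strain. Of 10 clock genes, 0 were 2-fold higher and the same 3 were lower, against 18.5% and 12.0% of 19370 genes. The median was -0.30 for the clock genes and 0.15 for all genes. Both comparisons share the PBS array, so their likeness is not a repeat of the result.

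Under spike-in scaling more clock genes were lower, and so were more genes in general. With MRL/MpJ urine 5 of 9 clock genes were then 2-fold lower (Cry1 and Nr1d2 in addition), against 40.9% of all genes, and with lpr urine 6 of 10 (Cry1, Nr1d1 and Nr1d2 in addition), against 44.0%. On that scale 0 clock genes were 2-fold higher, against 5.58% and 5.59% of all genes. A share close to the background, such as 5 of 9 against 40.9%, is no result about the clock genes. Counted by probe at the percentile scale, 4 of 17 clock probes (Per1, 2 of Cry2 and Bhlhe40) were 2-fold lower and 0 higher with MRL/MpJ urine, against 12.4% and 15.5% of 30286 probes. With lpr urine the same 4 of 18 were lower and 0 higher, against 13.2% and 16.9% of 29743. Of the 4, the Cry2 probe for ENSMUST00000125488.1 was at -0.83 with normexp for lpr urine, within 2-fold. In unscaled signal, all 17 clock probes measured with PBS and MRL/MpJ urine, and all 18 measured with PBS and lpr urine, were dimmer with urine. The urine arrays were dimmer as a whole, with a median signal of 12.9 units for PBS, 9.16 for MRL/MpJ urine and 8.13 for lpr urine. The share of all probes that were dimmer was not counted, so these counts are no result about the clock genes.

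The place of a gene among all genes does not depend on scaling by a constant. With MRL/MpJ urine 0.993% of the 19639 genes had a lower log2 difference than Per1, 1.18% a lower one than Bhlhe40 and 5.25% a lower one than Cry2. With lpr urine these shares were 1.21%, 2.04% and 4.33%. Cry1 and Nr1d2 lay in the lower middle with MRL/MpJ urine, with 24.4% and 26.8% of genes below them. Per2, Per3, Dbp and Clock lay above the middle, with 59.7%, 67.9%, 72.6% and 75.5% of genes below. For Clock this holds for the lead probe, and its other measured probes (-0.54 and -0.65) lay below the median of all genes. The place of Cry2 is likewise that of its lead probe. Its other probes were at -1.68 and -0.59 with MRL/MpJ urine and at -1.34 and -0.48 with lpr urine. On the lead probes the 10 genes therefore did not sit together, and the few that stood out were at the low end.

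**Figure D3:**
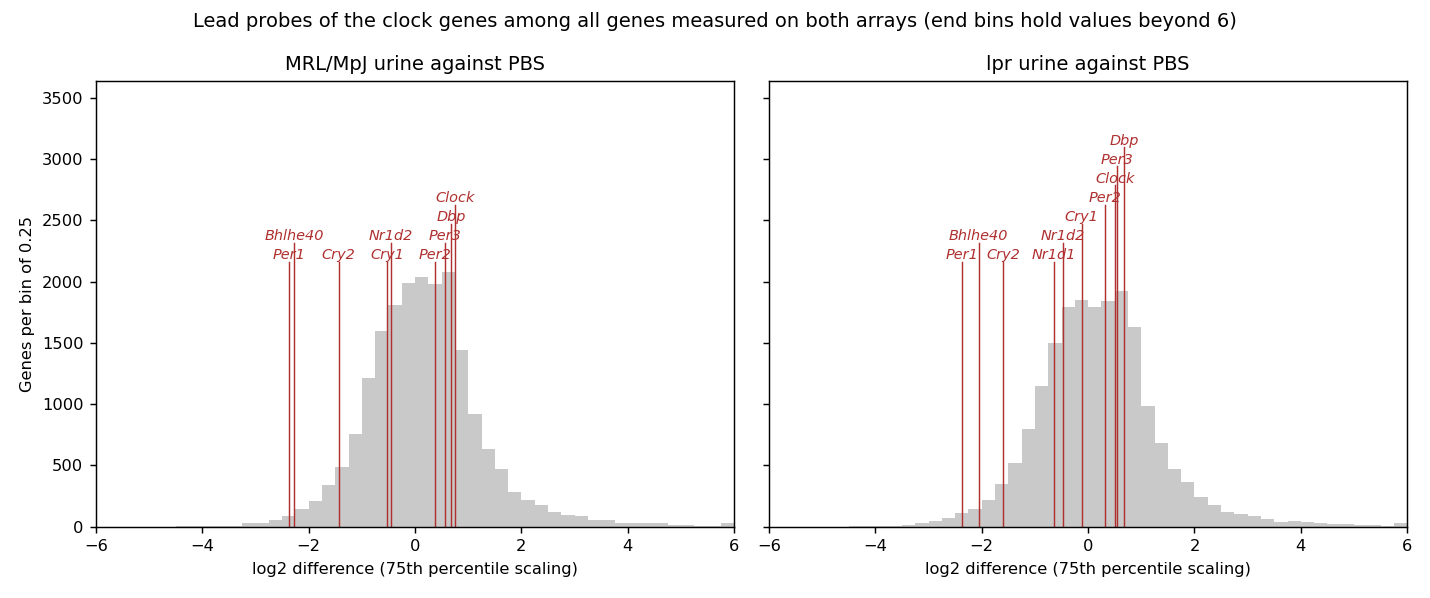
Number of genes per bin of 0.25 in log2 difference from PBS (grey bars, genes measured on both arrays, lead probe, scaling to the 75th percentile), for MRL/MpJ urine (left, 19639 genes) and lpr urine (right, 19370 genes). Red lines mark the lead probes of the clock genes, with Per1, Bhlhe40 and Cry2 in the left tail and Per2, Per3, Dbp and Clock right of the middle of all genes in both panels; spike-in scaling would move every gene left by 0.91 and 0.99.

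Genes with the pattern most like that of Per1, by distance in both log2 differences from PBS, were Tmem115 (-2.37 and -2.38), Csf2rb2 (-2.39 and -2.36) and Gzmb (-2.36 and -2.33). The distance rests on 2 differences from 3 arrays, and 74 of 14127 named genes lay within 0.25 of Per1. For Dbp, the member with the highest mean difference, 1380 genes lay within 0.25, with Nfe2, Fbxo47 and Anxa6 the nearest.

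Beyond the 10 members, 41 further genes of the clock and its inputs were listed, and 37 were measured on both arrays of each comparison. With MRL/MpJ urine 10 were 2-fold lower and 2 higher, against 11.1% and 16.9% of all genes, and with lpr urine 10 were lower and 3 higher, against 12.0% and 18.5%. Under spike-in scaling 21 of 37 were lower and 1 higher with each urine, where 40.9% and 44.0% of all genes were lower and 5.58% and 5.59% higher. The median was -0.24 and -0.14, against 0.13 and 0.15 for all genes.

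Among partners and loop factors, 4 of the 9 measured genes were lower and 0 higher with either urine. Nfil3, whose protein E4BP4 represses through the D-boxes that DBP activates, read 776 units on the PBS array, 73.0 for MRL/MpJ urine and 75.5 for lpr urine, a log2 difference of -2.55 and -2.30. Its second probe differed by -2.64 and -2.43. Nfil3 thus differed about as much as Per1 and on both of its probes. Cipc, a CLOCK-binding inhibitor, differed by -1.60 and -1.75, and all 3 of its probes were 2-fold lower. Rora, which activates Bmal1 where REV-ERBs repress it, differed by -1.27 and -1.20. Ciart, another repressor of CLOCK and BMAL1, differed by -1.75 and -1.15 on its lead probe, but by -0.02 and 0.72 on the other. Arntl, the Bmal1 gene, read 148.6, 69.7 and 64.9 units, and its differences of -0.23 and -0.14 stayed within 2-fold on the lead probe, as did those of its 3 other probes. Under spike-in scaling the lead probe of Arntl passed 2-fold lower at -1.14 and -1.13, where 40.9% and 44.0% of all genes were 2-fold lower. Tef, a relative of Dbp, differed by 0.23 and 0.34 on its lead probe, and by -0.67 and -0.65 under spike-in scaling. Its 4 probes spanned 0.21 to 0.74 with MRL/MpJ urine and -0.27 to 1.17 with lpr urine. Npas2, a stand-in for Clock, and Bhlhe41, the paralogue of Bhlhe40, were near background, with at most 5.33 and 5.84 units.

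Genes for enzymes that tag or stabilise clock proteins mostly stayed within 2-fold. Of 9, 2 were lower with each urine. Csnk1e, a casein kinase that marks PER proteins for decay, differed by -1.41 and -1.49 on its lead probe and by -0.54 and -0.75 on its least different one. Usp2, a deubiquitinase, differed by -1.23 and -1.02 at signals of 25.7, 6.02 and 6.12 units, and a second probe gave 0.07 with MRL/MpJ urine. Gsk3b passed 2-fold higher with lpr urine at 1.02, but its lowest probe was at -0.31 and spike-in scaling gave 0.03. Of 7 corepressors and cofactors, 1 was higher with each urine and 0 were lower on the lead probe. The higher one was Sfpq, a PER-associated RNA-binding protein, whose lead probe read 4985 units on the PBS array, 10975 for MRL/MpJ urine and 9886 for lpr urine. Its 5 probes spanned log2 differences of 0.25 to 4.85 with MRL/MpJ urine and 0.33 to 5.15 with lpr urine. Nono, a partner of SFPQ, was at -0.01 and 0.02 on its lead probe but at -3.81 and -4.34 on the other, and is named because of these values, after they were seen.

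Of 9 genes that carry cAMP and hormone signals to the Per genes, 2 were lower and 1 higher with each urine. Sik1, a salt-inducible kinase that restrains CRTC coactivators, read 888 units on the PBS array, 103.6 for MRL/MpJ urine and 88.9 for lpr urine, a difference of -2.24 and -2.26. Crem, the cAMP response element modulator, differed by -1.93 and -1.39 on the lead probe, but its 5 probes spanned -2.97 to 0.73 and -2.75 to 2.01. Crtc3 was higher by 1.15 and 1.32 on the lead probe, while the other probe gave 0.01 and -0.08 and spike-in scaling put the lead probe at 0.24 and 0.33. Of 3 outputs, 2 were lower with each urine. Nampt, the rate-limiting enzyme of NAD salvage, differed by -1.83 and -2.06. Wee1, a kinase that holds back mitosis, differed by -2.38 and -2.69 at 90.5, 9.53 and 6.73 units.

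**Figure D4:**
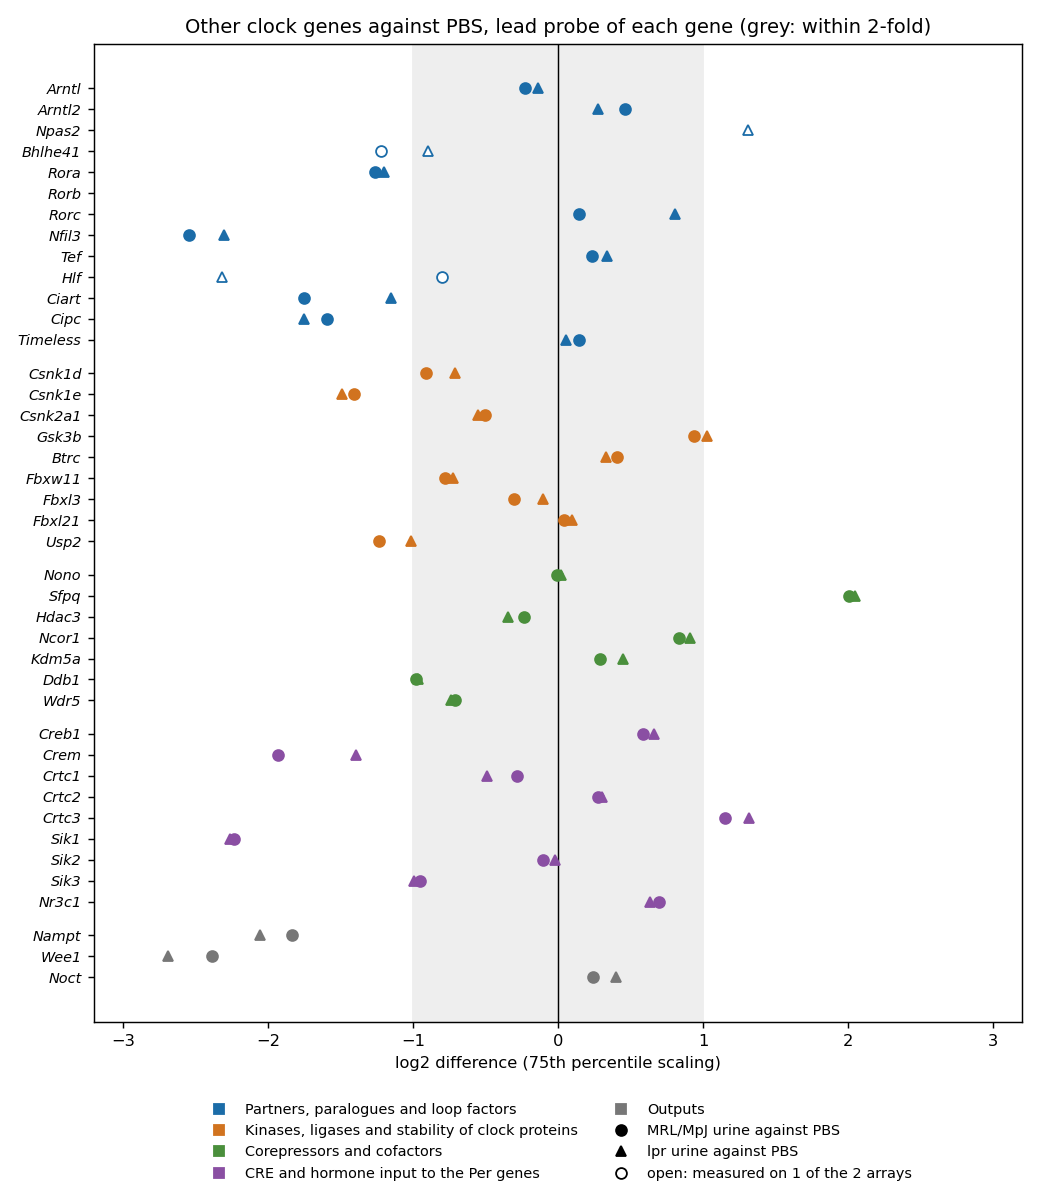
Log2 difference from PBS of the lead probe of 41 further clock-related genes, by list (colour), with MRL/MpJ urine (circles) and lpr urine (triangles), after scaling to the 75th percentile. Open symbols were measured on 1 of the 2 arrays and genes measured on neither have no symbol. Among filled symbols Nfil3, Wee1 and Sik1 lie farthest left and Sfpq farthest right.

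The comparison of both urines asked whether urine from the autoimmune strain acted differently. Of 9 clock genes measured on both urine arrays, 0 were past 2-fold, where 0.340% of 20014 genes were 2-fold higher and 0.0600% lower with lpr urine. The median of the clock genes was -0.01, and of all genes 0.00. Per1 differed by 0.01, Dbp by 0.00 and Per3 by -0.02. Bhlhe40 was at 0.22, Cry1 at 0.41, Cry2 at -0.16 and the lead probe of Clock at -0.23. Of 17 member probes measured on both, 1 passed 2-fold. That was the Clock probe at chr5:76641377-76641436, which was 3.04-fold higher with lpr urine. Its log2 difference of 1.60 was 1.52 under spike-in scaling but 0.93 with normexp background correction, which ends the 2-fold call. Probes measured with lpr urine alone were the second Per1 probe, at least 1.81-fold higher than with MRL/MpJ urine, and that of Nr1d1, at least 1.34-fold higher. With normexp their log2 differences were 0.19 and 0.16. Of all 30608 probes 0.294% were 2-fold higher and 0.0719% lower, and the span of 1.84 between Clock probes exceeded that of 99.9% of the 6755 genes with several measured probes. The other Clock probes differed by -0.23 and -0.10. Of the 37 further clock genes measured, 0 were past 2-fold between the urines.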

How the data were processed

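The 3 samples were read on 1-colour (Cy3) Agilent arrays of design 074809, with probe positions on mm9, per the file headers. The authors deposited scanner output from Feature Extraction 12.0.3.1, a version the submitters' processing notes also give. The deposited values are intensity in arbitrary units, from which that software subtracted background with detrending within each array, per the file headers. Nothing had been normalized between arrays. The software's 0 or 1 calls (other units) were used as deposited.

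Control and outlier spots were left out, repeated spots of a probe were averaged as log2, and each array's 75th percentile was subtracted (Python 3.11.15, pandas 2.3.3). Alternatives were median scaling, spike-in scaling, quantile normalization, normexp correction with offset 50 (limma 3.58.1), the mean of a gene's probes, no filter on dim probes, and folds of 1.5 and 3. Counting was tested on simulated data. A bound ("at least") sets the measured signal against the other array's own signal or its lowest signal well above background, whichever is higher. Named genes were all 10 members with each probe, 7 fixed loop factors, and further clock genes past 2-fold, up to 6 per list and comparison, and the 3 genes nearest in pattern to the highest and the lowest member. Promoters came from RefSeq. Members and lists were chosen with earlier results of these data known. With 1 array per condition, the number of arrays limits precision.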

Additional observations from a re-analysis of the deposited data

How the results depend on the processing

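No paired analysis was possible because each condition had 1 array, and none could be left out for the same reason. Per1, Cry2 and Bhlhe40 were 2-fold lower than PBS with both urines under median scaling, spike-in scaling, quantile normalization and normexp correction. Nr1d1 joined them with lpr urine under median scaling, spike-in scaling and quantile normalization. Counts of clock genes 2-fold lower under spike-in scaling were 5 (MRL/MpJ urine) and 6 (lpr urine), where 40.9% and 44.0% of all genes were lower. At 1.5-fold 2 and 1 clock genes were higher, and the share of all genes at that fold is not given here, so these 2 counts are no result about the clock genes. The median log2 difference of the clock genes with MRL/MpJ urine was -0.83 under median scaling, -1.36 under spike-in scaling and -0.17 with normexp, and with lpr urine -0.69, -1.29 and 0.10. For all genes these medians were -0.24, -0.78 and 0.21, and -0.24, -0.84 and 0.21. The clock gene median minus that of all genes was thus -0.59 and -0.45 under either scaling, and -0.38 and -0.11 with normexp. Of the further clock genes, 1 was higher with each urine under median scaling, spike-in scaling, normexp, the mean of probes and a 3-fold threshold. The shares of all genes that were higher were 10.6% and 11.1% under median scaling, 5.58% and 5.59% under spike-in scaling, and 6.97% and 7.32% with normexp. Such shares are not given here for the mean of probes, the other folds or no filter on dim probes. At 1.5-fold 5 further clock genes were higher with MRL/MpJ urine, 7 with lpr urine and 2 with lpr against MRL/MpJ urine. Spike-in scaling gave 21 further clock genes lower with each urine, where 40.9% and 44.0% of all genes were lower, and a 3-fold threshold 5 lower with lpr urine. Without the filter on dim probes 5 further clock genes were higher with lpr urine than with PBS and 1 was lower with lpr than with MRL/MpJ urine. The Clock probe that was 3.04-fold higher with lpr than with MRL/MpJ urine was at 0.93 in log2 with normexp. Signals near background limit Nr1d1, Usp2, Wee1 and the dim probes of Per1, Per2, Cry1 and Clock.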
